A study of Mus musculus with 8 samples.

Results

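Repeat-covered distal peaks are the differential ATAC-seq peaks of embryonic mouse hearts that lay more than 3 kb from any annotated transcription start site (TSS; GENCODE M21), overlapped no exon, and had more than 50% of their bases masked as repeat in the mm10 sequence. Of the 15736 peaks in both deposited lists, 1268 met this rule, and they are called members here. All but 1 of them were 151 bases long. The lists came from 4 WT and 4 *Chd4-CMko* samples of mid-gestation hearts (E10.5). In *Chd4-CMko* embryos floxed *Chd4* is deleted by *Tnnt2*-Cre, a Cre recombinase driven by the cardiac troponin T gene and active in cardiomyocytes. For embryos of this stage used in staining, the methods give *Chd4* fl/fl females and *Tnnt2* Cre/+; *Chd4* fl/+ males as the parents. The parents, alleles and strain of the WT embryos measured here are not given in the sources used here. Each sample was a pool of 3 hearts by the design text and the methods (4 by the extraction protocol), and a whole heart also holds endocardial, epicardial and other cells that the driver does not target. A bulk signal therefore cannot tell a change per cell from a change in the makeup of the tissue. Gained peaks were those the authors called at least 2-fold higher in *Chd4-CMko* than in WT, and lost peaks the reverse. The lists give 1 score per peak and no value per sample, so read depth and replicate spread are unknown here, no test between genotypes was made, and the tissue label was not checked against marker genes. Intervals are Wilson 95% intervals for shares and Newcombe or normal 95% intervals for differences. They cover counting error over peaks only, and copies of 1 repeat family are not independent, so they are too narrow where a family fills a set.

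Large parts of the mouse genome derive from transposable elements, most of which are kept silent by DNA methylation, histone methylation and chromatin remodelling. CHD4 is the ATPase of the NuRD remodelling complex and, with ADNP and HP1 proteins, of the ChAHP complex, which is known to act at SINE elements. Long terminal repeats of endogenous retroviruses act as promoters, and many carry a CCAAT box, the site of the trimeric factor NFY. The octamer is the site of POU family factors, the X-box that of RFX factors, and the CACCC type of site that of KLF and SP factors. Telomeric repeats also lie inside chromosome arms, as interstitial stretches. The masked letters of the sequence used here give no repeat class, so families are described by their sequence, by letters in order of size, and by a name only where RefSeq annotates a matching element.

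The sequences below show the groups that the comparison turned on. Members were grouped where their sequences aligned at 80% identity over at least 80 bases, and the member with the highest score was taken from groups B, C, D, E, G and L, the next from B and the highest-scoring lost member from D. From group A the highest-scoring member with a KLF site was taken, which ranks 4 in that group. All are 151-base peaks in mm10 and are written 5′ to 3′ on the strand given. The ungrouped *Tmem267* peak has the highest score of all gained members. In it and in groups B, D, E, G and L capitals mark CCAAT (or ATTGG, its reverse complement), in group B also ATTTGCAT (the octamer), and in group G also the AP-1 site TGANTCA. In group C capitals mark the X-box and in group A the KLF site. The first group B peak is at chr14:57656629-57656779 (plus strand, intron of *Xpo4*) and the second at chr11:61102609-61102759 (plus strand, intergenic). The group G peak is at chr1:52431969-52432119 (minus strand, intergenic), the group E peak at chr1:63323771-63323921 (minus strand, intergenic) and the group L peak at chr5:119922419-119922569 (plus strand, intergenic). The gained group D peak is at chr2:148884866-148885016 (minus strand, intergenic) and the lost one at chr10:108431802-108431952 (plus strand, intron of *Gm36283*). The group C peak is at chr15:99120430-99120580 (plus strand, intergenic) and the group A peak at chr7:66334157-66334307 (plus strand, intron of *Lrrk1*). The *Tmem267* peak is at chr13:119602027-119602177 (plus strand, intron).
Group B near Xpo4: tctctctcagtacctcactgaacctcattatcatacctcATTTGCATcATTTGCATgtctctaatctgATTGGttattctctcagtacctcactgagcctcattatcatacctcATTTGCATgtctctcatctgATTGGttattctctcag
Group B near Tnfrsf13b: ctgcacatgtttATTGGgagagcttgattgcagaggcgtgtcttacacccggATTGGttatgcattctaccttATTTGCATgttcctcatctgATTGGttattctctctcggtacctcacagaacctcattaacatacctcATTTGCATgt
Group G near Nab1: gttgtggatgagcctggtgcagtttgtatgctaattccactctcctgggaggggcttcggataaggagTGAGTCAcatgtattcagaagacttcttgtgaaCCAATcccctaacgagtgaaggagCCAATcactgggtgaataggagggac
Group E near Zdbf2: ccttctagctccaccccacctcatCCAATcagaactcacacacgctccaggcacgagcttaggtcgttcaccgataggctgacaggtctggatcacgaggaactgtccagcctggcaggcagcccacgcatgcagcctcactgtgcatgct
Group L near Tbx5: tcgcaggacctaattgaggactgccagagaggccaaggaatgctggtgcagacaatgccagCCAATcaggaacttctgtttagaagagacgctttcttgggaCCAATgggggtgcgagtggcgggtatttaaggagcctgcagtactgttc
Group D gained near Cst3: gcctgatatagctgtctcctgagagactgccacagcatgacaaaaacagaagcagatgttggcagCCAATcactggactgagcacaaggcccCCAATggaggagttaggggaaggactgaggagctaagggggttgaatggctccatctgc
Group D lost near Pawr: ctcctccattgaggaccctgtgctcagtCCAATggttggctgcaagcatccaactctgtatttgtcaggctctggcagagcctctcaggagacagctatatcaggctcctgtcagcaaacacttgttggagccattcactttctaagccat
Group C near Spats2: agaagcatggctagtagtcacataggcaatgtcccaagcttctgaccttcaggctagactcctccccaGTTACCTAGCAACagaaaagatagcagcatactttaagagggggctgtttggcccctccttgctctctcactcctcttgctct
Group A in Lrrk1: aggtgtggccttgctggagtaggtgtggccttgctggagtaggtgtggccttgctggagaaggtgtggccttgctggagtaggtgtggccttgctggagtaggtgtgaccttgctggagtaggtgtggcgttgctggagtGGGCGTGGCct
Ungrouped in Tmem267: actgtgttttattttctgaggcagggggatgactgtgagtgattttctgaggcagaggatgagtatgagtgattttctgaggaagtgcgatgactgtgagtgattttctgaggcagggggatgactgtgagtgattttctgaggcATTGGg
Both peaks from group B hold the octamer with ATTGG after it, and the *Xpo4* peak holds this arrangement more than once. The group A and *Tmem267* peaks are short units repeated along the interval.

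Repeat-covered sequence was scarcer among distal peaks than in distal sequence at large, and more frequent in the gained than in the lost list. Of 12991 gained peaks, 1100 were members (8.47%, interval 8.0 to 8.96%), and of 2745 lost peaks, 168 were (6.12%, 5.28 to 7.08%). Among distal peaks alone, members made up 13.0% of gained and 7.66% of lost peaks, a difference of 5.35 percentage points (3.97 to 6.62), and the share was the higher in the gained list on 18 of 19 autosomes. The interval of this difference reached 0 when only fully masked peaks were taken (0.587, -0.221 to 1.27) and among the higher-scoring peaks (1.56, -0.240 to 3.14). All distal windows of 151 bases in the genome served as a background: 33.6% of them met the masking rule. Both lists therefore held a smaller share of members than this background. How reads with several alignments were treated is not given in the sources used here, and its part in the low share was not tested.

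Among members, 1100 of 1268 were gained (86.8%, 84.8 to 88.5%), against 7354 of 9378 other distal peaks (78.4%, 77.6 to 79.2%). The background over all listed peaks was 82.6% gained. The difference between members and other distal peaks was 8.33 percentage points (6.19 to 10.3), in the same direction on 18 of 19 autosomes. Its interval reached 0 in fully masked peaks (3.42, -1.26 to 7.32) and among the higher-scoring peaks (4.20, -0.632 to 8.37), and the order turned with 1 member kept per group of similar sequence (-1.43, -6.09 to 2.68), an alternative chosen after seeing the data. The difference did not follow the masked share step by step. The gained share was 74.2% in distal peaks with no masked base, 81.1% with up to 25% masked and 89.5% with over 25 to 50% masked. Within the members it was 87.0% at over 50 to 75%, 89.1% at over 75% and below 100%, and 82.7% (78.1 to 86.6%) where the whole interval was masked. Just outside the rule, at 40 to 50% masked, 286 peaks were gained and 28 lost. Just inside it, at over 50 to 60%, 202 were gained and 31 lost. At the other border, masked peaks outside exons at 2 to 3 kb from a TSS numbered 62 gained and 3 lost, and those at over 3 to 4 kb numbered 61 gained and 9 lost.

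**Figure D1:**
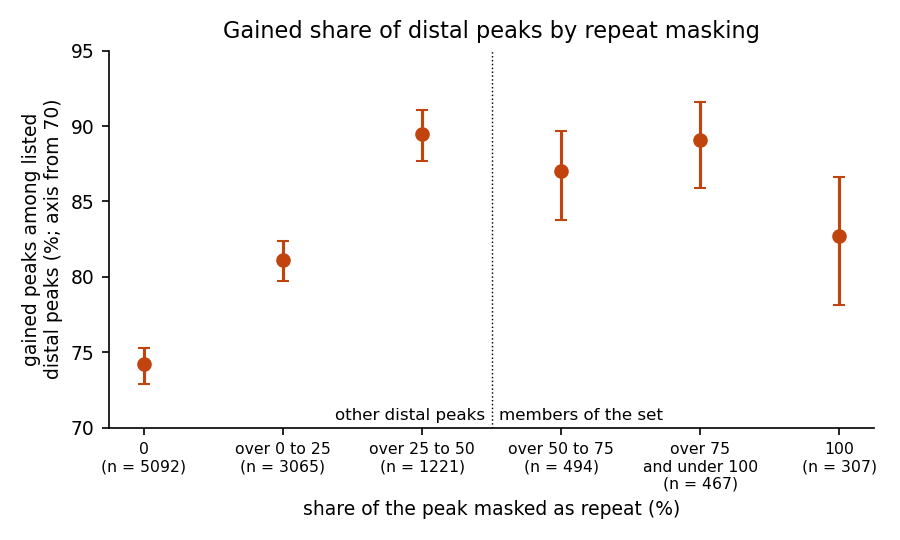
Share of gained peaks among listed distal peaks (y axis, percent, drawn from 70) by the share of the peak masked as repeat (x axis, percent). Points are shares and bars Wilson 95% intervals. The share rises from 74.2% with no masked base to 89.5% at over 25 to 50%, and is 82.7% in fully masked peaks.

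The gained share was then compared within classes of GC content. At 40 to 45% GC, 82.5% of 103 members were gained, against 51.6% of 546 other distal peaks. At 50 to 55% GC the shares were 90.1% of 504 and 79.2% of 3250. Above 60% GC the order turned, with 86.8% of 76 members (77.4 to 92.7%) and 93.2% of 923 other peaks (91.4 to 94.6%) at 60 to 65% GC, where the intervals overlap. At 70 to 75% GC, 60% of 5 members (23.1 to 88.2%) and 97.3% of 75 other peaks (90.8 to 99.3%) were gained. The order was also turned at 30 to 35% GC, with 1 of 3 members and 4 of 5 other peaks.

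Gained members were poorer in GC and in CpG, the dinucleotide that DNA methylation targets, than the other gained distal peaks. Mean GC content was 52.1% ± 5.74 (SD, n = 1100 peaks) in gained members and 54.2% ± 6.15 (n = 7354) in other gained distal peaks, a difference of -2.14 percentage points (-2.51 to -1.77). With a masked share over 25% as the rule, its interval reached 0 (-0.136, -0.450 to 0.177). Lost members had 49.8% ± 7.85 (n = 168) and other lost distal peaks 50.1% ± 5.45 (n = 2024), which could not be told apart (difference -0.282, interval -1.49 to 0.929). Gained members were higher in GC than lost members by 2.28 percentage points (1.04 to 3.51), on 12 of 19 autosomes. The interval reached 0 at over 75% masked (0.889, -0.741 to 2.52), and the order turned in fully masked peaks (-0.159, -2.67 to 2.35). Genome windows under the same rule had a mean of 41.1%, below every one of these 4 sets. CpG averaged 1.58 per gained member, 2.54 per other gained distal peak, 1.57 per lost member and 2.0 per other lost distal peak, against 1.04 per genome window. Gained and lost members did not differ in CpG beyond the interval (difference 0.00584, -0.355 to 0.367), but with a masked share over 25% as the rule gained peaks held more (0.458, 0.214 to 0.702).

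Scores, which can be read only within a list, were lower in members. The median score was 40.5 in gained members and 56.5 in other gained distal peaks, and it was the lower in members on 19 of 19 autosomes. In the lost list the medians were 29.6 and 36.4, with members lower on 12 of 19 autosomes. Of gained members, 23.5% lay above the median of their whole list, and 36.9% of lost members did.

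CCAAT boxes were more frequent in gained members than in lost members or in other gained peaks. Outside the larger groups of similar sequence described below, the interval of the difference from other gained distal peaks reached 0 (CCAAT 4.31, -0.684 to 9.67; NFY 2.25, -1.20 to 6.51), as it did with 1 member per group (3.61, -1.71 to 9.39, and 0.777, -2.72 to 5.25), both alternatives chosen after seeing the data. A CCAAT on either strand was in 50% of gained members (47.1 to 52.9%), 29.1% of other gained distal peaks, 21.4% of lost members (15.9 to 28.2%) and 12.3% of other lost distal peaks. Of all genome windows under the member rule, 27.6% held it. The share in gained members lay above that of the genome's repeats, whereas the interval of lost members reached it. The longer NFY string (NNCCAATNN, with purines as the first pair of N, then C or G and a purine as the last pair) was in 290 gained members (26.4%, 23.8 to 29.0%) and in 0 of 168 lost members. The interval for this count of 0 reaches up to 2.24%. It was in 12% of other gained distal peaks and in 2.10% of the windows, or 2.84% when the windows were weighted to the GC content of gained members, so the gained members' share was 9.30 times as high. The gained-to-lost difference was 26.4 percentage points (23.0 to 29.0) and had the same direction on 19 of 19 autosomes. Of 452 NFY sites in gained members, 409 (90.5%) lay wholly in masked bases, and masked bases made up 80.2% of the sequence. A single site was present in 182 members, 2 sites in 73 and 3 or more in 35. Across classes of masking, the string was in 12.2% of gained distal peaks with no masked base, 10.9% with up to 25% and 14% with over 25 to 50% masked. It was in 19.1% at over 50 to 75%, 20.7% at over 75% and below 100%, and 48.0% of fully masked peaks.

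The KLF string (GGGNGNGGC, with a pyrimidine as the first N and G or T as the other) was in 149 gained members (13.5%), in 0 of 168 lost members, in 10.6% of other gained distal peaks and in 0.415% of the windows, or 1.31% when weighted to the GC content of gained members. The difference from other gained distal peaks (2.98, 0.951 to 5.24) lost its call in 6 of 15 alternatives, in 1 of which, fully masked peaks, it turned (-2.77, -5.65 to 1.32). The octamer and the X-box were searched after the sequences had been seen. The octamer was in 152 gained members (13.8%), in 0 of 168 lost members and in 1.92% of other gained distal peaks, against 1.81% of windows (0.696% weighted). The X-box, the inverted repeat bound by RFX factors, was in 121 gained members (11%), 1 lost member, 0.884% of other gained distal peaks and 0.143% of windows (0.322% weighted). Outside the larger groups described below the X-box was in 1 of 329 gained members and the octamer in 8 (2.43%, 1.24 to 4.72%). The octamer's difference from other gained distal peaks, 11.9 percentage points, was not kept in 2 of 14 alternatives and was 0.218 at the lowest. The YY1 string AAGATGGC, by contrast, was in 9 lost members (5.36%, 2.84 to 9.87%) and 3 gained members (0.273%), with windows at 2.49%. Weighted to the GC content of lost members the windows stood at 6.20%, inside the interval of lost members, and weighted to that of gained members at 6.64%, far above the share in gained members. Among the higher-scoring peaks the order of this string turned (gained minus lost 0.385 percentage points, and 0.153 with a common score limit). Strings of cardiac and general enhancer factors were less frequent in gained members than in other gained distal peaks, except that the GATA difference turned to 5.35 percentage points with 1 mismatch allowed and that of TEAD to 0.571 outside the groups described below. AGATAAG, the string of the erythroid and cardiac GATA factors, stood at 4.00% against 6.69%. The TEAD factors' ACATTCC stood at 2.09% against 4.60%, the MEF2 site at 0.909% against 4.17%, the E-box CAGCTG at 4.36% against 14.7%, and the ETS string ACAGGAAGT at 0 of 1100 against 1.09%. AP-1 was at 4.27% against 5.77%, with an interval of the difference from -2.68 to -0.0378. With 1 member kept per group, an alternative chosen after seeing the data, the intervals of the GATA, TEAD, MEF2, ETS and AP-1 differences all reached 0 (-1.35, -1.04, -1.68, -1.09 and -2.56 percentage points). The AP-1 difference lost its call in 9 of 15 alternatives, whereas the E-box difference kept it in all 14 tried. Windows weighted to the GC content of gained members held GATA in 1.35%, TEAD in 1.37% and AP-1 in 2.48%, below the gained members' shares. They held MEF2 in 0.922% and ETS in 0.117%, within the members' intervals, and the E-box in 6.40%, above them. Lost members were also below other lost distal peaks for the E-box (4.76% against 15.8%), TEAD (3.57% against 7.91%) and AP-1 (5.36% against 10.1%). For GATA, MEF2 and ETS that difference's interval reached 0. CTCF was in 1 gained and 1 lost member. The remaining strings were rare or close to each other in both lists. CRE (TGACGTCA) was in 1 gained and 0 lost members, NRF1 (GCGCATGCG) in 0 of both, and the SINE B box (GGTTCGA) in 1 gained and 2 lost. TATAAA, the core promoter box, was in 6.0% of gained and 5.36% of lost members, and the polyadenylation signal AATAAA in 7.91% and 8.93%. These last strings were in 15.8% and 24% of the windows, or 8.58% and 7.80% when weighted to the GC content of gained members.

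**Figure D2:**
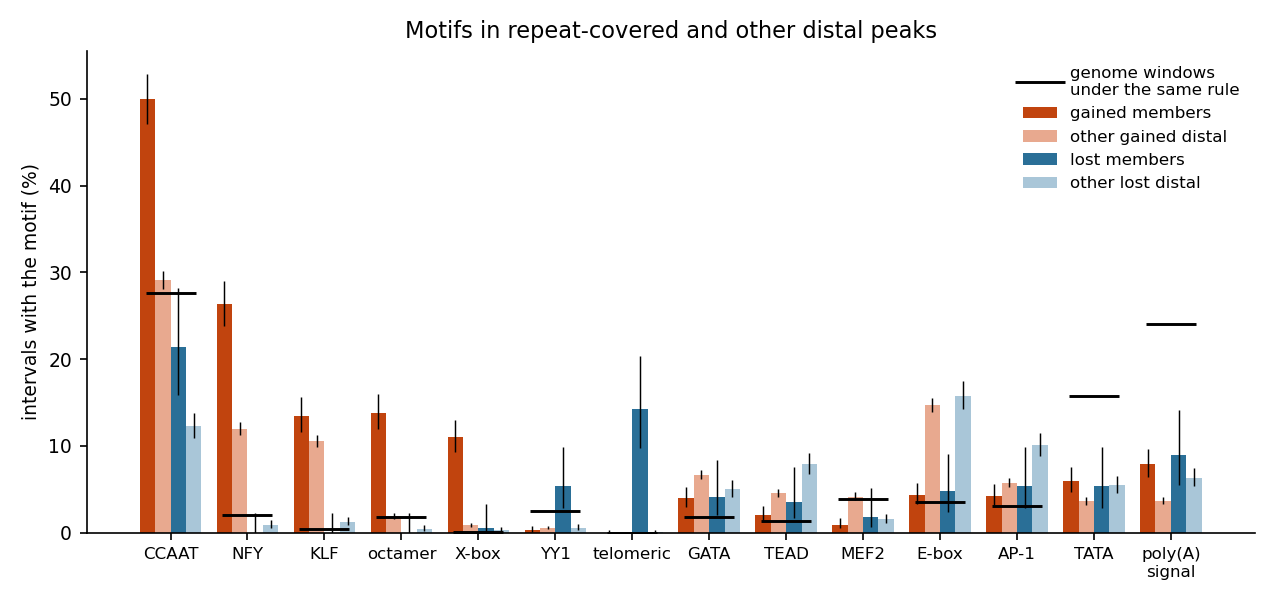
Share of intervals that hold each motif on either strand (y axis, percent) in gained and lost members and in other distal peaks of each list, with Wilson 95% intervals. The black line is the share of all genome windows under the member rule. NFY stands at 26.4% of gained members and in none of the 168 lost members, while the telomeric run is in 14.3% of lost members and in none of the gained ones.

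NFY sites lay toward the middle of the peaks in members as in other gained peaks. Of the 452 sites in gained members, 236 (52.2%, 47.6 to 56.8%) were centred within 30 bases of the peak's centre, where evenly spread sites would give 42.7%. In other gained distal peaks, 683 of 1210 sites (56.4%, 53.6 to 59.2%) were. Sites in 1 family keep their spacing, so they are not independent of each other.

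**Figure D3:**
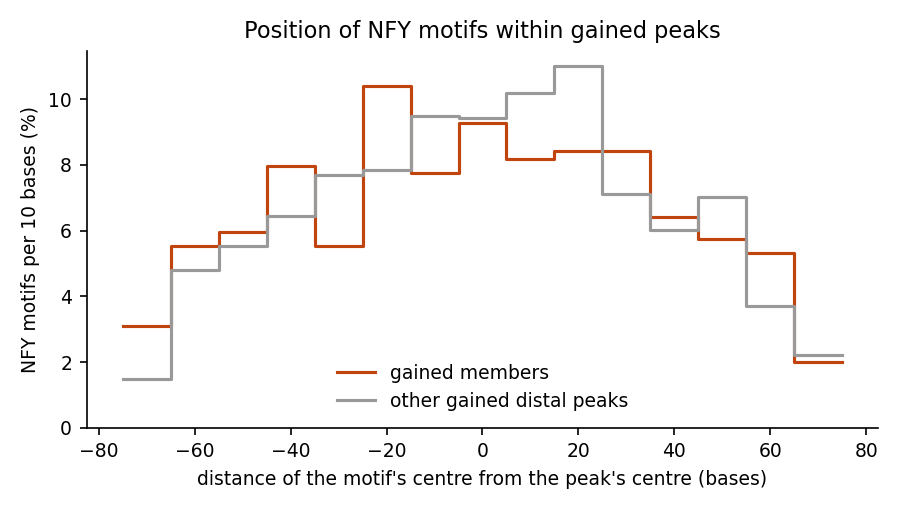
Share of NFY sites per 10 bases (y axis, percent of sites in the set) by distance from the peak's centre (x axis, bases) in gained members (452 sites) and in other gained distal peaks (1210 sites). Both lines are higher near the centre, and the outermost steps have fewer possible positions.

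Most members belonged to groups of similar sequence. Of 1268 members, 951 (75%) aligned with at least 1 other member, in 48 groups. The 12 groups of 10 or more held 820 members, 771 gained and 49 lost, where 86.8% of all members were gained. Of these 12, 8 held gained members alone, 1 held lost members alone and 3 held both. Gained members were in a group of 2 or more in 77.8% of cases and lost members in 56.5%, which cannot be compared directly, since a member of the longer list has more possible partners. Groups come from chained alignments, so not every pair of members in a group aligns.

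**Figure D4:**
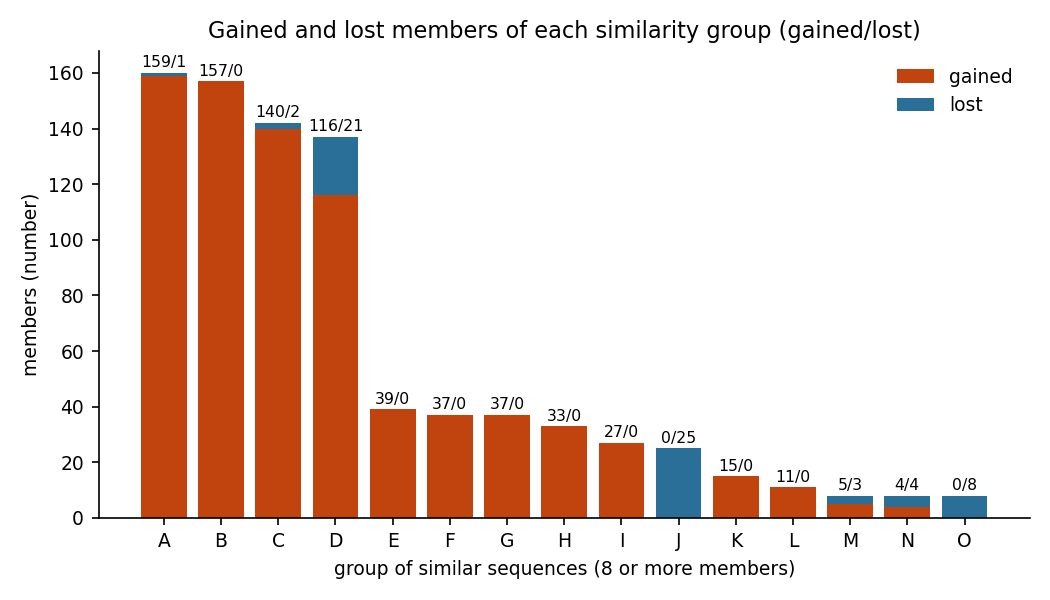
Number of gained and lost members (y axis) in each group of similar sequences with 8 or more members (x axis, letters in order of size), with the numbers gained and lost above each bar. Groups B, E to I, K and L have gained members alone, and groups J and O lost members alone.

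Group B joined the octamer to the CCAAT box. All 157 of its members were gained and lay on 19 chromosomes, 66 of them inside genes. Its median member was fully masked and held 24-mers found a median of 91.5 times in the genome. CCAAT was in 156, the NFY string in 151 and the octamer in 144 of the 157. Read along the octamer's strand, the most frequent arrangement put the start of the NFY site 18 bases after the start of the octamer, in 161 pairs of sites, and the next, 50 bases before it, was seen in 50 pairs. The member with the highest score (232.5) was the *Xpo4* intron peak. Another lay 149939 bp from *Ryr2*, which encodes the calcium release channel of cardiomyocytes, with a score of 39.0. Group B alone held 151 of the 290 NFY-holding gained members and 144 of the 152 with an octamer.

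The other CCAAT families were smaller. Group G had 37 members, all gained, with CCAAT in 36, the NFY string in 33, the AP-1 string in 20 and AATAAA in 28. Groups E, F and H had 39, 37 and 33 members, all gained, with CCAAT in 33, 37 and 33. The NFY string was in 17 of group F and in 1 each of groups E and H, whose boxes have other neighbouring bases. Group K had 15 members with the NFY string in 13, and group L 11 members with the string in all 11. The group L member shown above lay 86264 bp from *Tbx5*, a cardiac transcription factor gene, and had the highest score of its group (143).

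Groups A, C and I had gained members with other sites. Group A was tandem, with 159 gained and 1 lost member, a most frequent period of 20 bases and the KLF string in 75. Its highest-scoring member, chr6:127398225-127398375 (186.5), lay 48465 bp from *Parp11* and held none of the motifs searched. Group C had 140 gained and 2 lost members, and the X-box was in 121 of them and the NFY string in 0. Group I had 27 gained members, the KLF string in 23 and a mean of 4.78 CpG per member, against 1.58 over all gained members.

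The largest group of lost members alone was a tandem repeat. Group J held 25 lost members and no gained one, on 15 chromosomes. A run of 4 telomeric units (TTAGGG) was in 23 of them. It was in 24 of 168 lost members (14.3%, 9.79 to 20.4%) against 0 of 1100 gained members, with an interval up to 0.348%. Over the whole lists the run was in 27 of 2745 lost and 0 of 12991 gained peaks, and in 193 of 4796763 windows under the member rule. Of the 5 lost members with the highest scores, 4 belonged to group J. Among these were members near *Fgf14* (510.5, 124546 bp), in an intron of *Nedd4l* (398.4) and near *Ankle1* (259.1, 25358 bp). The one outside group J, chr16:3114482-3114632 with a score of 653.5, was a fully masked, AT-rich interval with 28.5% GC. Group O, 8 lost members, was also of low complexity, with a mean of 99.4% of bases under the low-complexity mask.

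Some lost members came from groups of high copy number. Group Z, 4 lost members with no gained one, held the YY1 string in all 4, was fully masked at the median and had 24-mers found a median of 3430 times in the genome. Group Y, another 4 lost members, had a median of 13879 and no YY1 string.

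Low complexity covered most of the interval in 56 of 168 lost members (33.3%, 26.6 to 40.8%) and in 74 of 1100 gained members (6.73%), a difference of -26.6 percentage points (-34.2 to -19.7). Other distal peaks had 1.54% in the gained and 0.247% in the lost list. A tandem structure, in which at least 60% of the bases equalled the base 1 period on, was found in 128 gained members (11.6%) and 56 lost members (33.3%).

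Few members could be given a named element. In all, 10 gained (0.909%) and 7 lost members (4.17%) aligned over at least 40 bases with a B1_Mus2 SINE annotated by RefSeq, a difference of -3.26 percentage points (-7.46 to -0.994). B1 elements derive from the 7SL RNA of the signal recognition particle. Group M, 5 gained and 3 lost members, was made of such elements in all 8. A 7SL RNA gene was matched by 3 gained members and a tRNA by 3. These counts overlap, since a member in an intron of *Spats2* matched both B1_Mus2 and 7SL.

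Copy number bears on how surely a read can be placed. The median 24-mer of the interval occurred 2 or more times in the genome in 54.3% of gained members (51.3 to 57.2%) and 63.1% of lost members (55.6 to 70%), against 2.31% and 1.14% of other distal peaks. Without low-complexity members the order turned, with gained members higher by 4.09 percentage points (-5.51 to 13.7). At most 50% of 36-mers were unique in 291 gained members (26.5%) and 66 lost members (39.3%). With peaks of this kind removed, the gained share stayed higher in members than in other distal peaks (interval of the difference 8.15 to 12.6 percentage points). The NFY difference between gained members and other gained distal peaks was 6.16 percentage points (3.54 to 9.06) in place of 14.3 (11.7 to 17.1). No member held a 24-mer of the mitochondrial genome.

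The excess of CCAAT and NFY strings over other gained peaks was larger inside the larger groups, a split chosen after the data had been seen. Among the 771 gained members in the 12 larger groups, the NFY string was in 31.5% (28.3 to 34.9%). Among the 329 others it was in 14.3% (10.9 to 18.5%). The difference from lost members was 14.3 percentage points (9.69 to 18.5) in these 329, with 0 of 119 lost members holding it. CCAAT was in 57.1% of the 771 and 33.4% of the 329, and KLF in 13.7% and 13.1%.

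Group D held the most lost members of the groups with both directions, 116 gained and 21 lost, and allows a comparison within similar sequence. CCAAT was in 74 of 116 gained (63.8%) and 12 of 21 lost members (57.1%), a difference of 6.65 percentage points with an interval from -13.8 to 28.8. The NFY string was in 13 gained and 0 lost members (difference 11.2, -4.91 to 18.2), so a difference was not detectable at this number. GC content was 50.6% in gained and 49% in lost members, higher in gained by 1.57 percentage points (0.384 to 2.76). Copy number differed as well, since 36-mers unique in the genome made up a mean of 65.3% of those in the interval in gained and 40.5% in lost members, a difference of 24.8 percentage points (9.97 to 39.6). The median 24-mer count was 5 in gained and 111 in lost members.

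The genome was searched for further copies with the members of the 10 larger groups that are not tandem. A copy was a locus that aligned with at least 10% of the group's members. The search starts from listed peaks, so copies unlike them are missed. Of 3109 copies of group B, 182 overlapped a gained peak (5.85%, 5.08 to 6.73%) and 0 a lost peak. The share was 7.37% of 638 copies in group E, 6.12% of 1143 in group F, 4.63% of 1124 in group G, 4.46% of 1300 in group H and 3.99% of 702 in group L. Groups C (3.12% of 3809), I (1.84% of 2223) and K (0.733% of 2865) were lower, and group D lowest, with 127 gained and 19 lost peaks in 67536 copies (0.188% and 0.0281%). Among these 10 groups, groups C, D and I had a copy under a lost peak and the other 7 had none.

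Copies under a gained peak held the group's motif more often than unlisted copies in several families. In group K the NFY string was in 18 of 21 gained and 770 of 2844 unlisted copies (85.7% and 27.1%, difference 58.6, 38.2 to 68.1). In group G the shares were 88.5% and 66.0% (difference 22.4, 10.7 to 29.2), in group L 100% of 28 and 79.1% of 674 (20.9, 8.51 to 24.2), in group F 41.4% and 27.3% (14.1, 2.98 to 26.1) and in group D 13.4% and 1.32% (12.1, 7.21 to 19.1). Group B was different, since nearly every copy held the string, 95.6% of gained and 94.1% of unlisted copies (1.55, -2.57 to 3.89). The octamer, a string chosen after the sequences were seen, was in 92.3% of gained and 69.8% of unlisted copies of group B (22.5, 17.4 to 26). The CCAAT box of groups E and H did not differ beyond the interval, at 85.1% of gained and 88.3% of unlisted copies in group E (-3.22, -16.2 to 4.79) and 100% and 94.2% in group H (5.80, -0.524 to 7.24). The X-box of group C, also chosen after the sequences were seen, was in 84.0% of gained and 69.5% of unlisted copies (14.5, 6.73 to 20.2). The KLF string of group I was in 73.2% and 68.9%, which could not be told apart (4.30, -10.9 to 15.6). The window was centred on the peak in listed copies and on the aligned stretch in unlisted ones, and the part of this in the differences was not tested. Copies under a gained peak also include the group's own members, whose sequences started the search. Group K had 15 members and 21 such copies, and group L 11 and 28. The differences are therefore not independent of how the groups were made.

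**Figure D5:**
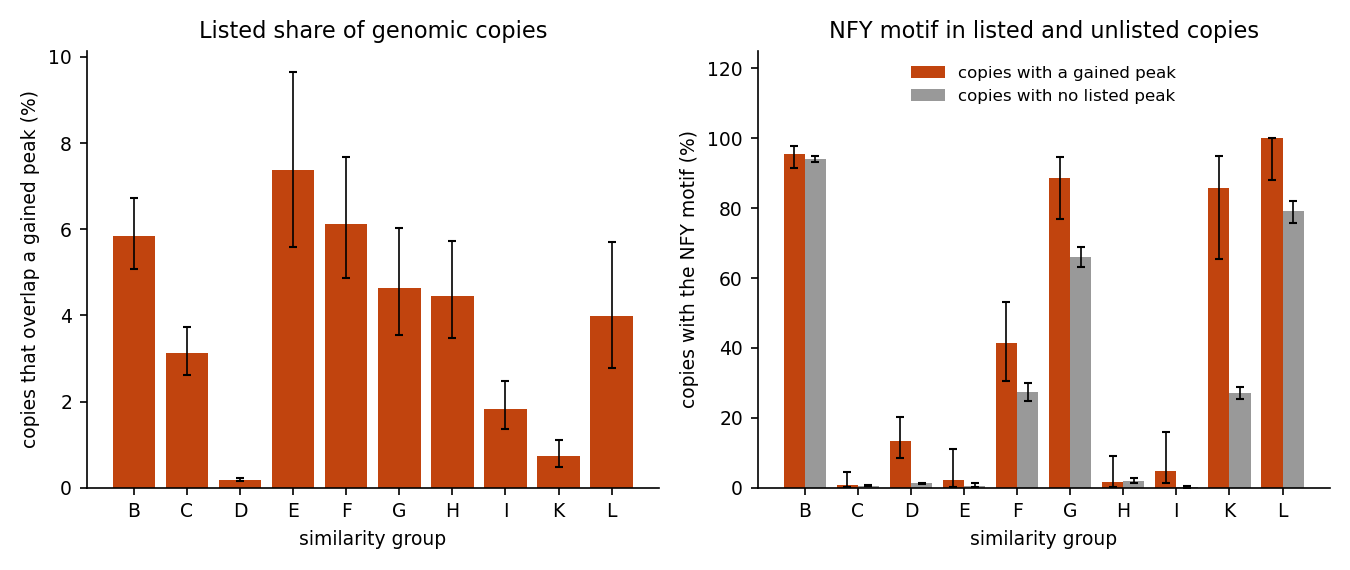
Left, share of the genomic copies of each group that overlap a gained peak (y axis, percent); right, share of copies with the NFY string (y axis, percent) among copies under a gained peak and copies under no listed peak. Bars are Wilson 95% intervals. The string is more frequent in listed copies of groups D, F, G, K and L, while in group B it is in over 90% of both.

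Gained and lost members lay inside genes about equally often. Inside an annotated gene were 463 gained (42.1%) and 71 lost members (42.3%), against 52% and 60.3% of other distal peaks. The median distance to a TSS was 14800 bp in gained and 19575 bp in lost members. Other members lay within 10 kb of 27 gained and 3 lost members. The Y chromosome had 4 lost distal peaks, all of them members, and no gained distal peak. Embryos of both sexes were used, and the makeup of each pool is not given in the sources used here.

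The nearest protein-coding genes were many, and few were named more than once. Gained members had 1005 such genes, 4.59% of the 21911 annotated, and lost members 166, or 0.758%. *Bach2*, a gene of a transcriptional repressor, was nearest to 4 gained members, at 8514 to 79613 bp from a TSS and with scores of 27.5 to 126.5. A further 16 genes had 3 gained members each. Among them was *Tbx3*, a T-box gene of the conduction system, with members at 166556, 211678 and 310653 bp and scores of 27, 64.0 and 69.5. Another was *Cited2*, a transcriptional coregulator needed for heart development. Its members, of groups A, B and E, lay at 52121, 151187 and 1151100 bp. *Spats2* was next to the highest-scoring member of group C, 5336 bp away (181.0). For lost members, *Pkhd1* and *H60c* had 2 each.

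Of the gene lists, 30 cardiomyocyte genes included 3 nearest to a gained member and 0 nearest to a lost one. These were *Smyd1*, the muscle methyltransferase gene (chr6:71211966-71212116, 4758 bp, score 49.5), *Tbx5* and *Ryr2*, and only *Smyd1* lay within 50 kb. The *Smyd1* member belonged to no group and held none of the motifs searched. Of 21 endothelial genes, 4 had a gained member nearest: *Erg*, an ETS factor gene, at 22197 bp (group H, score 73.0), *Pecam1*, a junction protein gene, at 22980 bp (98), *Vwf*, the von Willebrand factor gene, at 18287 bp (38.5) and *Npr3*, a natriuretic peptide receptor gene, at 68264 bp (28). The 26 skeletal muscle genes had *Myog*, a myogenic factor gene, at 19698 bp (group G, 53.0). The 14 smooth muscle genes had *Synpo2*, an actin-binding protein gene, at 17191 bp (67.5) and *Cald1*, the caldesmon gene, at 59444 bp (45.0). The 12 epicardial genes had *Col1a1*, a collagen gene, at 25012 bp (gained, 72.5) and *Twist1* at 116034 bp (lost, 159.1), the latter in an intron of *Hdac9*. The 17 annotated erythroid genes had *Gata1* at 14973 bp, by a group M member (39.0), and the 19 neuronal genes *Snap25*, a synaptic vesicle fusion gene, at 36160 bp (group C, 25). None of 20 glycolysis and 20 repeat-silencing genes was nearest to a member. Each count is to be read against the 4.59% of all genes and the 9 lists looked at, and the lists were not tested. Whether any of these genes responds to the peak near it is not in these data.

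The 5 gained members with the highest scores were of different kinds. The first, chr13:119602027-119602177 with a score of 537.5, was an intronic tandem repeat of a 31-base period in *Tmem267*. The next, with 241.5, was a GC-rich tandem repeat (73.5% GC, period 26) 147801 bp from *Setbp1*. The *Xpo4* and *Cst3* members of groups B and D followed (232.5 and 231.5), and then a tandem repeat of a 31-base period 30922 bp from *Syt13* (213.5). Of these, the *Xpo4* and *Cst3* members held the NFY string and the other 3 did not. The member with the third highest score among holders of the string lay in an intron of *Sergef*, at chr7:46471478-46471628 (182.0).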

How the data were processed

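ATAC-seq peaks of 4 WT and 4 *Chd4-CMko* samples were analysed from 2 deposited lists, 1 per direction. The authors aligned reads to mm10 with BWA-MEM and called peaks and differences with HOMER 4.10.3, with ChIPseeker 1.20.0 among their tools. The deposited score of a peak, on a scale that is not given, was compared within a list, with 2 exceptions among the alternatives. The common score limit set the lost list's median as the limit for both lists. The choice of 1 member per group took the highest score over both lists. Handling of reads with several alignments and of duplicates is not given in the sources used here, and the files hold no depth. Repeat classes were not used here beyond matches to RefSeq elements.

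Peaks were annotated with GENCODE M21 and soft-masked mm10 sequence. Members and gene lists were chosen with earlier results of these data known, and the octamer, X-box and telomeric motifs after the sequences were seen. Motifs were searched as exact strings on both strands, with overlaps between motifs allowed, and a peak was counted once. Genome windows were 151 bases. Copies were counted as 24-mers and 36-mers, low complexity with dustmasker at a 50% limit, and similarity with blastn 2.17.0 (80% identity, 80 bases). The computations ran in Python 3.11.15 and were tested on simulated data. Sequence elements used to name members were taken from RefSeq. Peaks are not replicates, so the intervals compare lists and not animals. Named were the 5 highest-scoring members of each list (the highest lost one, of group J, is not reported here), the 3 highest with an NFY string, the highest of the 5 largest groups, the genes nearest to most members and listed genes within 50 kb. Members of other groups, *Tbx3*, *Cited2*, *Spats2* and listed genes beyond 50 kb were named after their values were seen.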

Additional observations from a re-analysis of the deposited data

How the results depend on the processing

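No paired analysis was possible because the lists hold no value per sample, and leaving out samples in turn was not possible for the same reason. The NFY, CCAAT and KLF differences between gained and lost members kept their direction and call under every alternative tried, with ranges of 12.8 to 48.0, 14.9 to 33.8 and 8.27 to 28.4 percentage points. The interval of each difference given below reached 0, except for the CpG difference, which gained a call, and the GATA difference, which turned with an interval that excluded 0. The causes were not tested unless the alternative itself removes peaks.

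With a masked share over 25%, the GC difference between gained members and other gained distal peaks was -0.136 and the CpG difference between gained and lost members 0.458. Over 75%, the GC difference between gained and lost members was 0.889. In fully masked peaks it was -0.159, the difference in member share 0.587, in gained share 3.42, the KLF difference from other gained distal peaks -2.77 and the AATAAA difference -1.54. Among the higher-scoring peaks of the lists, the member share difference was 1.56, the gained share difference 4.20, the KLF difference 1.83 and the YY1 difference between gained and lost members 0.385, which was 0.153 with a common score limit. The KLF difference from other gained peaks was 1.91 beyond 10 kb from a TSS and 2.03 with 1 mismatch, where the GATA difference was 5.35.

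Alternatives chosen after seeing the data were these. With 1 member per group, the gained share difference was -1.43, and differences from other gained distal peaks were 3.61 for CCAAT, 0.777 for NFY, 2.60 for KLF and -0.172 for the X-box. Outside groups of 10 or more, they were 4.31, 2.25, 2.5 and -0.580, and 0.571 for TEAD. Without low-complexity members, the multi-copy difference was 4.09. Of the alternatives chosen earlier, groups held 557 members at 90% identity over 100 bases and 1110 at 70% over 50. Within 50 kb, gained members had 625 nearest genes and lost members 89.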
